A study of Homo sapiens with 39 samples.

Results

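The mitochondrial ribosomal proteins were followed as messenger RNA in a pair of human B-lineage cell lines, IM9 and U266, with and without ch128.1Av. Members were all probes whose gene symbol was MRPL or MRPS followed by a number, with pseudogenes left out. This gave 86 of 20589 probes, for 75 genes, with 55 probes for 47 MRPL genes and 31 probes for 28 MRPS genes. Of these, 85 passed the detection filter and were tested among 12080 kept probes. The exception was the MRPL55 probe ILMN_29939, which was detected on no array, while a second MRPL55 probe was kept. IM9, an Epstein-Barr virus-transformed B-lymphoblastoid line, is labelled sensitive, and U266, a multiple myeloma line, is labelled tolerant. ch128.1Av joins avidin to an antibody directed at transferrin receptor 1, through which cells take up iron. Cells were collected untreated at 0 h (labelled Control) and at 1, 3, 9 and 24 h with 10 nM ch128.1Av or with buffer (also labelled Control), which made 18 groups on 39 arrays, 19 of IM9 and 20 of U266. Groups held 2 arrays, or 3 for ch128.1Av at 3 h in IM9 and at 1 and 9 h in U266. Each label is represented by 1 cell line, and nothing in the labels says whether replicates were separate cultures, so the p-values measure only the spread between these samples, which may be technical.

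Mitochondria translate the few proteins their own genome encodes, all of them core subunits of the respiratory chain or ATP synthase, on a ribosome of their own. That ribosome combines RNA made in the organelle with proteins that are encoded in the nucleus, made in the cytosol and imported. The symbol MRPL marks proteins assigned to the large subunit, which joins amino acids and holds the exit tunnel, and MRPS those assigned to the small subunit, which reads the messenger, although structures place MRPS30 and MRPS18A in the large subunit.

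Per array, the median raw intensity was 137.9 to 223.3 and 8967 to 10067 probes were detected, and across genes the correlation of replicates was 0.994 to 0.999. Of 8 B cell marker probes, 7 were detected on 10 or more IM9 arrays and 2 on 10 or more U266 arrays. CD22, FCER2, CD79A, EBI3 and BANK1 were detected on all 19 IM9 arrays and on 0 U266 arrays. CCND1, a cyclin listed here with the plasma cell and myeloma markers, was detected on 0 IM9 and 20 U266 arrays. MS4A1, which encodes CD20, was detected on 1 IM9 array and 0 U266 arrays. Of 9 plasma cell and myeloma probes, 5 and 8 were so detected in IM9 and U266. Of 17 probes for T, NK, myeloid, erythroid, epithelial and stromal cells, 2 were so detected in IM9 (NKG7 and CSF1R) and 2 in U266 (CD2 and HBB). Several other markers did not separate the lines by detection. Both CD79B probes, IRF4, TNFRSF17, JCHAIN, XBP1 and the PRDM1 probe ILMN_8384 were detected on all arrays of both lines. The other PRDM1 probe, ILMN_20596, was detected on 4 IM9 and 20 U266 arrays. The plasma cell marker SDC1 was detected on 3 IM9 and 13 U266 arrays with 1 probe, and on none with the other. Values below are log2 normalized intensities, in which 1 unit is a doubling, and differences are log2 differences with their standard error (SE). A probe was called where the adjusted p of limma over all kept probes was under 0.05. In bulk RNA, fewer cells that hold a transcript and less of it per cell cannot be told apart.

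Promoter windows from RefSeq (GRCh38.p14), 250 bases before to 50 after the annotated start, were at hand for 68 of the 75 genes, and the first window listed was read for each. Windows are shown for MRPL11, whose probes moved in opposite directions, for MRPL48, MRPS23 and MRPL57, whose fall in treated IM9 cells passed the test under all 13 settings and omissions of an array tried, and for MRPS10, a further member that fell and whose window holds the letters of 2 motifs. Capitals mark matches, on either strand, to GCGCA and GCGC parted by any 1 base (nuclear respiratory factor 1, NRF1), CCGGAAG (ETS family, which includes the mitochondrial gene activator GABPA) or AAGATGGC (YY1). The windows are chr11:66438799-66439098 on the minus strand, chr11:73787624-73787923 on the plus strand, chr17:57849995-57850294 on the minus strand, chr13:21176408-21176707 on the plus strand and chr6:42217812-42218111 on the minus strand.
MRPL11: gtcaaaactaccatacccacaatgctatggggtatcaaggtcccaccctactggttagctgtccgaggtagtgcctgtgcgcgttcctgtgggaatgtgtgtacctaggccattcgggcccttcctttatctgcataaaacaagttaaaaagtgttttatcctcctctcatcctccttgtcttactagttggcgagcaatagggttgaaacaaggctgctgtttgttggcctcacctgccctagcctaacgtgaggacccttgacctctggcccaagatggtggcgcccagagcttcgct
MRPL48: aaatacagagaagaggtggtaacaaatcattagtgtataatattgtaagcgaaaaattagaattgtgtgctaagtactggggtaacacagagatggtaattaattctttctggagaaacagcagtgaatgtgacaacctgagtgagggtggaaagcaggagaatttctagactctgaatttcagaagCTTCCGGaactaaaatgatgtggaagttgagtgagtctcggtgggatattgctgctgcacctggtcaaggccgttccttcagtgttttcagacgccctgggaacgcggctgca
MRPS23: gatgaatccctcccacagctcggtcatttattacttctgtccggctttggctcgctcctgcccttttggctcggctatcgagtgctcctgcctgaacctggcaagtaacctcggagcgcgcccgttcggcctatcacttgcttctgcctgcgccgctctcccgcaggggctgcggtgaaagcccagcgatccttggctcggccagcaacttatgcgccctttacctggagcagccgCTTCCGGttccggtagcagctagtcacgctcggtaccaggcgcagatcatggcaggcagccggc
MRPL57: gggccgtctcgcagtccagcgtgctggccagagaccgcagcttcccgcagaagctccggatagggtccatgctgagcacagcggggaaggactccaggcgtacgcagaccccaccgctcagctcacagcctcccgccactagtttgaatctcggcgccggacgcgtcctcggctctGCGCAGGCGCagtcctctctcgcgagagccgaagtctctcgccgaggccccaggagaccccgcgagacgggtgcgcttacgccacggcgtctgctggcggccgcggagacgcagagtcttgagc
MRPS10: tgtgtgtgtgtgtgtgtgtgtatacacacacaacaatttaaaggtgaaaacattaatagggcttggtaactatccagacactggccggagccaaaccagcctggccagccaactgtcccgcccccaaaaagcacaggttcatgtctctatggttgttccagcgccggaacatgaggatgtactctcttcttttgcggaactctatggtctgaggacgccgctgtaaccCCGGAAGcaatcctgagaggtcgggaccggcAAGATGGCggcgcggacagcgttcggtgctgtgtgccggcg

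The NRF1 letters were present in 8 of the 68 member windows (11.8%) and in 6.28% of 27305 promoter windows of the same length. The ETS letters were present in 28 member windows (41.2%, against 10.7% of all windows), and the YY1 letters in 19 (27.9%, against 3.03%). Among protein-coding windows these shares were 8.58%, 14.2% and 3.91%. At least 1 motif was present in 44 member windows, and none held all of them. A match describes letters only. The MRPL11 window shown held none of these exact letters, MRPL48 and MRPS23 each held the ETS letters, MRPL57 the NRF1 letters, and MRPS10 the ETS and YY1 letters, which did not overlap. Of the 14 windows of members that fell in treated IM9 cells at 24 h, 8 held the ETS letters, as did 20 of the 54 others. A gene counted as fallen if any of its probes fell. The 14 thus include MRPL11, whose other probe rose, and MRPL22, whose other probe was not called.

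Between the lines, most mitochondrial ribosomal protein genes were higher in IM9 than in U266. Over the 10 Control arrays of each line, 55 of 85 probes were higher in IM9 and 24 lower, and 6 were not called. Most of the array differed between these lines: 82.6% of all kept probes were called, 41% higher and 41.6% lower. The median difference of the members was 0.25, and that of all kept probes was 0.00. The Control arrays of the lines did not overlap for 45 members, 32 of them higher and 13 lower in IM9, against 50.2% of all kept probes. A called difference of over 2-fold was reached by 7 members upward and 2 downward (10.6% of members, against 17% of all kept probes). Of the 79 called members, 57 kept their sign in each of the 9 line comparisons at the same hour and treatment.

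MRPS35, a small-subunit protein found only in mitochondrial ribosomes, had the largest difference. Its Control arrays ranged from 11.46 to 11.80 in IM9 (median 11.68) and from 9.62 to 9.90 in U266 (median 9.73). The lines were far apart with no overlap, 3.76-fold (1.91, SE 0.0341, adjusted p = 7.28e-25). MRPS31, another small-subunit protein with no bacterial counterpart, ranged from 11.73 to 12.14 in IM9 (median 11.92) and from 10.06 to 10.55 in U266 (median 10.32), and was 3.05-fold higher in IM9 (1.61, SE 0.0393, adjusted p = 5.88e-22). MRPL12, which forms the stalk that recruits translation factors and also binds the mitochondrial RNA polymerase, ranged from 12.12 to 12.59 in IM9 and from 10.82 to 11.27 in U266. Its difference was 2.42-fold (1.27, SE 0.0605, adjusted p = 6.34e-16). MRPL16, which lies near the catalytic centre of the large subunit, ranged from 11.86 to 12.46 in IM9 and from 10.76 to 11.11 in U266, and was 2.41-fold higher (1.27, SE 0.0371). MRPS30 and MRPS18C, a homologue of bacterial S18, were 2.04-fold and 2.02-fold higher (1.03 and 1.02). In none of these 6 genes did the Control arrays of the lines overlap, which was a condition for naming the largest differences.

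MRPL1, the homologue of the protein of the bacterial L1 stalk beside the tRNA exit site, had the largest difference in the opposite direction. It ranged from 12.97 to 13.17 on the IM9 Control arrays (median 13.11) and from 14.47 to 14.65 on those of U266 (median 14.53). All IM9 arrays were below all U266 arrays, by 2.72-fold (-1.44, SE 0.0248, adjusted p = 3.41e-25). MRPL33, MRPL54 and MRPL53 of the large subunit were lower in IM9 by 1.73-fold, 1.67-fold and 1.64-fold (-0.79, -0.74 and -0.72), and MRPS2 and MRPS24 of the small subunit by 1.40-fold and 1.38-fold (-0.48 and -0.47). None of these overlapped between the lines, as the same condition required. Higher and lower members were found in both subunits: 35 MRPL probes were higher and 15 lower, and 20 MRPS probes were higher and 9 lower. A class of 51 probes held members numbered after a bacterial counterpart, with MRPS24 added as a homologue of a bacterial protein. Of these probes, 34 were higher and 14 lower (median 0.32). Of the other 34, numbered beyond them, 21 were higher and 10 lower (median 0.23). With equal medians 55 members were higher and 15 lower, and their median was 0.44 (0.02 for all kept probes).

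MRPS18A, MRPS18B and MRPS18C are all homologues of bacterial S18. MRPS18C was higher in IM9 as given above, MRPS18B was higher by 0.38 (SE 0.0662, adjusted p = 1.32e-05), and MRPS18A differed by -0.07 (SE 0.0609, adjusted p = 0.259) and was not called. MRPL44, which carries a ribonuclease III-like fold, was 1.70-fold higher in IM9 (0.77, SE 0.0344), and MRPL58, a peptidyl-tRNA hydrolase built into the large subunit, was 1.36-fold higher (0.44, SE 0.0442). The remaining probes that were not called were those of MRPL46, MRPL50 and MRPL18, and 1 probe each of MRPL39 and MRPS21. Besides the MRPL55 probe, 6 members missed detection on some arrays, namely 1 probe each of MRPL39, MRPL4 and MRPS12, detected on 3, 3 and 13 IM9 arrays and 0 U266 arrays, 2 probes of MRPL43 (17 of 19 IM9 arrays each) and MRPL57 (16 of 20 U266 arrays). For the MRPS12 probe ILMN_19234 the measured means were 7.85 in IM9 and 7.77 in U266, where it was not well above background. Taken against the lowest detected signal in U266 it was at least 1.05-fold higher in IM9 (adjusted p = 2.53e-06). This bound is uncertain, as only 7 of 10 IM9 Control arrays detected the probe. The MRPL4 probe ILMN_13541 had measured means of 7.80 and 7.75 (adjusted p = 0.0101). It was detected on 1 of 10 IM9 Control arrays and on 0 of 10 in U266, so no bound on its difference can be given. Both p-values are those of the measured differences, and the MRPL4 call was lost with the replicate block (adjusted p = 0.0828). MRPS36 was not analysed here.

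**Figure D1:**
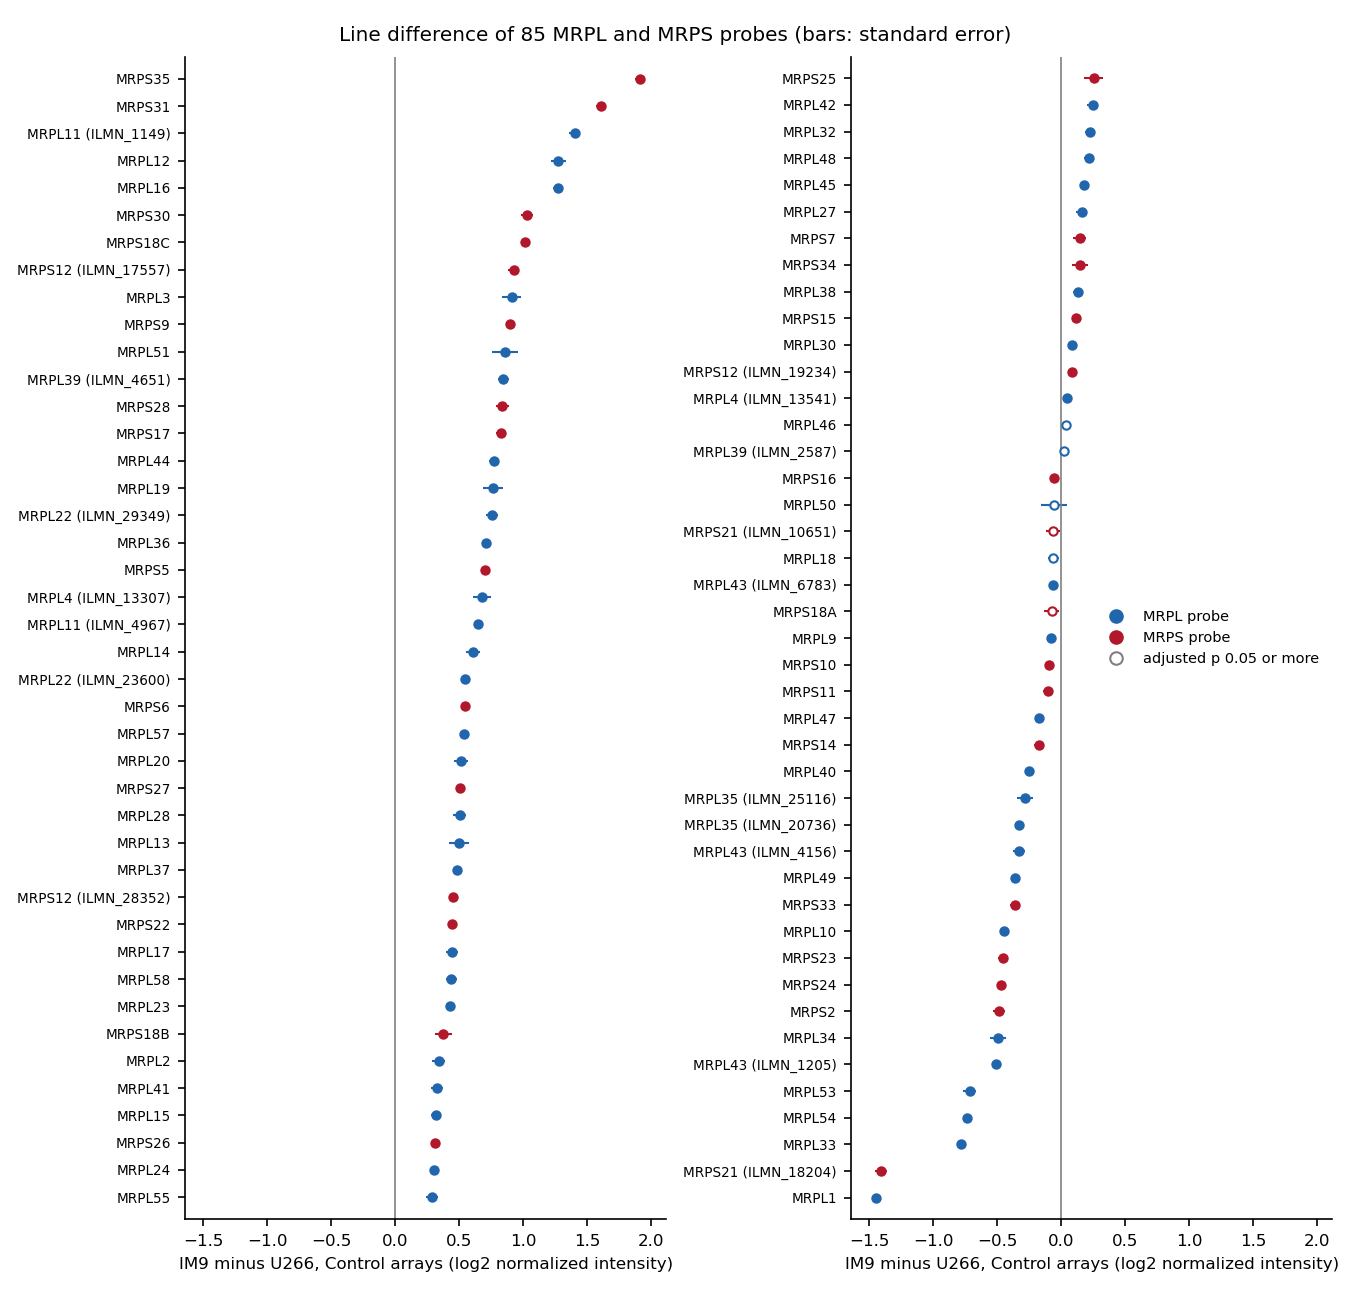
Differences between IM9 and U266 on the Control arrays for the 85 tested probes, in log2 normalized intensity, with standard errors as bars, the larger values in the left panel and the smaller in the right. Colour separates MRPL from MRPS probes, open points were not called, and the values run from 1.91 for MRPS35 to -1.44 for MRPL1.

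The median absolute line difference of the members was 0.44 (0.28 for all kept probes), and the pooled SD within groups had a median of 0.084 over members. The range of the group means within a line had a median of 0.30 over members in IM9 and 0.28 in U266. The widest ranges were 0.79 in IM9 and 0.77 in U266. A list of partner genes, 49 probes for 48 genes, held mitoribosome proteins under other names (4 probes), mitochondrial translation factors (11), factors of mitoribosome assembly and rRNA (26) and genes of mitochondrial DNA transcription with its nuclear regulators (8). Of its probes, 35 were higher in IM9 and 7 lower, with a median of 0.26. Assembly and rRNA factors were higher at 22 and lower at 2, translation factors higher at 7 and lower at 1, and the transcription genes higher at 5 and lower at 3. The list was led by MRM3, which methylates the large ribosomal RNA (1.95, adjusted p = 1.02e-24), C1QBP, a matrix chaperone (1.98, adjusted p = 1.18e-20), and 1 of 2 probes of YBEY, a ribonuclease that matures the small subunit (-1.67, adjusted p = 2.26e-25). Cytosolic ribosomal proteins were higher at 42 of 71 probes and lower at 7, with a median of 0.14.

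In buffer, members were called at 1, 3 and 24 h in both lines and at 9 h in neither. The share of members called was below that of all kept probes in each comparison except U266 at 24 h. In IM9, the comparison with 0 h gave 1 called member at 1 h (2.28% of all kept probes), 1 at 3 h (5.75%) and 0 at 9 h (3.84%), where 9 had an unadjusted p under 0.05. The 1 at 1 h was MRPS26, a small-subunit protein, with 12.42 and 12.43 at 0 h and 12.19 and 12.04 at 1 h (-0.31, adjusted p = 0.0116). The 1 at 3 h was the MRPS12 probe ILMN_28352, with 8.26 and 8.40 at 0 h and 8.45 and 8.52 at 3 h (0.16, adjusted p = 0.0354). MRPS12 is the homologue of bacterial S12, which helps to set decoding accuracy. Neither call was kept under every setting.

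In IM9 at 24 h, 3 members rose and 10 fell against 0 h, where 15.7% of all kept probes were called (8.68% higher, 7.02% lower). Their median was -0.03, and that of all kept probes was 0.00. MRPL16 had 11.97 and 11.86 at 0 h, values from 12.10 to 12.24 at 1 to 9 h, and 12.25 and 12.46 at 24 h. Both 24 h arrays were above both 0 h arrays, as the rule for naming required (0.43, SE 0.0831, adjusted p = 0.000796). MRPL40 and MRPL24, both of the large subunit, rose by 0.21 and 0.23 (adjusted p = 0.00156 and 0.0149). MRPL4, which lines the exit tunnel, stood at 9.65 and 9.73 at 0 h and at 9.01 and 8.93 at 24 h on its probe ILMN_13307. It fell by 0.72 (SE 0.161, adjusted p = 0.00318), with every Control array from 0 to 9 h above both 24 h arrays. MRPL19 had 10.32 and 9.93 at 0 h and 9.17 and 9.54 at 24 h (-0.77, SE 0.174, adjusted p = 0.00346), MRPL28 fell by 0.41 (adjusted p = 0.0135) and MRPS7 by 0.36 (adjusted p = 0.0383). With arrays scaled to equal medians, which moved the median of all kept probes to 0.12 and that of the members to 0.20, 0 members were called and MRPL28 turned to 0.00. Without Control replicate 2 at 24 h 8 members were called. Brightness, the ratio of the 75th percentile of raw intensity on an array over its 5th, moved with this comparison, at 6.17 and 4.52 at 0 h and 9.24 and 9.29 at 24 h. With brightness as a covariate 9 members were called, and MRPL4 (-0.42), MRPL28 (-0.27), MRPL24 (0.14) and MRPS7 (-0.17) were not among them. Of the 49 partner probes 4 rose and 3 fell, among them the rRNA methyltransferase MRM2 (-0.47, adjusted p = 0.0014), NOA1, a GTPase of small-subunit assembly (0.37, adjusted p = 0.00177), and TFB2M, a mitochondrial transcription factor (0.27, adjusted p = 0.0154).

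In U266 against 0 h, 3 members rose and 2 fell at 1 h, where 11% of all kept probes were called (5.83% higher, 5.15% lower). At 3 h 3 rose and 2 fell, where 7.29% were called (3.64% higher, 3.65% lower). At 9 h 0 members were called (3.27%), where 12 had an unadjusted p under 0.05. MRPL33 and the exit-tunnel protein MRPL23 were called at 1 and 3 h alike, at 0.19 and 0.18, and at 0.24 and 0.25. Both hours share the 0 h arrays. The remaining calls were MRPL44 (0.26) and MRPL2 of the catalytic core (-0.37) at 1 h, and MRPS18C (0.26), MRPL10, which anchors the MRPL12 stalk (-0.21), and MRPS31 (-0.29) at 3 h. The MRPL43 probe ILMN_1205 had 8.48 and 8.55 at 0 h and 8.15 and 8.08 at 1 h. It fell by 0.40 (SE 0.0607, adjusted p = 0.00028), and at 3, 9 and 24 h its arrays ranged from 8.30 to 8.55. The Control arrays of this probe were lowest at 1 h, and the call was kept under the 8 settings that tested it and without each of the 4 arrays in turn. Without replicate 1 of 0 h, 1 member was called at 1 h and 1 at 3 h.

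In U266 at 24 h, 11 members rose and 3 fell against 0 h, where 12.1% of all kept probes were called (5.38% higher, 6.75% lower). The median of the members was 0.02 (-0.11 with equal medians), and that of all kept probes was 0.00 (-0.05). MRPS18B had 10.05 and 10.11 at 0 h and 10.81 and 10.46 at 24 h (0.55, SE 0.148, adjusted p = 0.0187). MRPL28 had 9.33 and 9.44 at 0 h and 9.94 and 9.87 at 24 h (0.52, SE 0.113, adjusted p = 0.00539), so that in U266 it rose over the hours at which it fell in IM9. The difference between the lines in this drift was not tested. MRPS34, of the small subunit, and MRPL41, of the large, rose by 0.42 and 0.41 (adjusted p = 0.0488 and 0.0148), and the MRPL11 probe ILMN_1149 by 0.31 (adjusted p = 0.0339), while MRPL39, MRPS6 and MRPL40 fell by 0.30, 0.26 and 0.13 (adjusted p = 0.0439, 0.0247 and 0.0475). The calls rested on 1 array of either group: without Control replicate 1 at 24 h 0 members were called, and without replicate 1 at 0 h 1 was called. With equal medians 0 were called. Brightness was 11.71 and 6.55 at 0 h and 4.23 and 5.99 at 24 h. With it as a covariate 2 members were called, and none of the 8 named here was among them. Of the partner probes 2 rose and 2 fell, led by OXA1L, which inserts new proteins into the inner membrane (0.38, adjusted p = 0.00698).

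**Figure D2:**
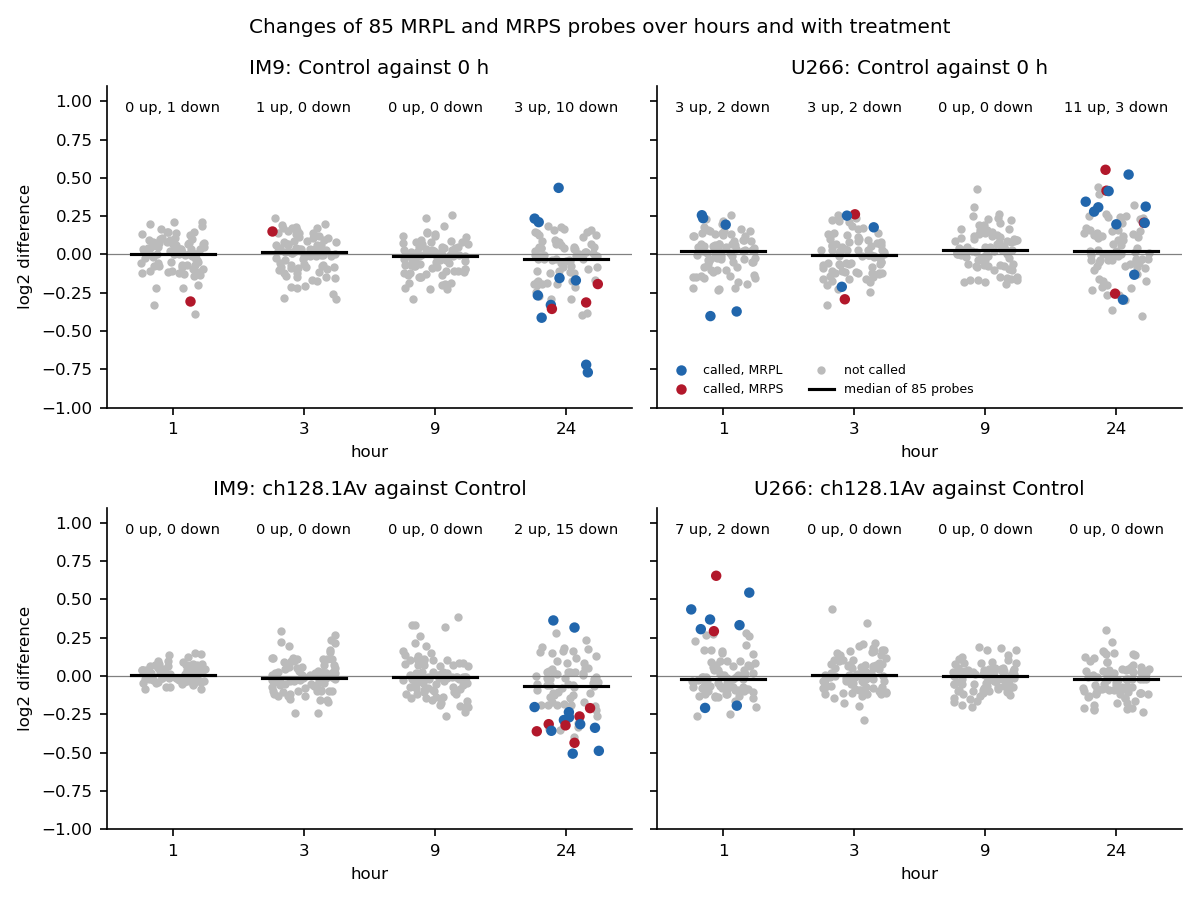
Log2 differences of the 85 probes against 0 h in Control cells (upper panels) and with ch128.1Av against Control of the same hour (lower panels), IM9 on the left and U266 on the right. Each point is a probe, coloured where called, black bars are the medians, and the counts of called probes stand above, the largest with treatment being 2 up and 15 down in IM9 at 24 h. With equal medians these were 0 up and 5 down.

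With ch128.1Av in IM9, most of the members called at 24 h were lower, and 68 of 85 were not called. Of the 85 probes, 15 were lower and 2 higher than in Control cells of that hour, where 13% of all kept probes were called, 7.01% lower and 6.03% higher. The median of the members was -0.06 and that of all kept probes 0.00, and 57 members lay below 0. The 15 lower probes were 9 of MRPL and 6 of MRPS genes. At 1, 3 and 9 h 0 members were called by limma, where 1, 2 and 8 had an unadjusted p under 0.05, and 0%, 0.0166% and 0.0993% of all kept probes were called.

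MRPL48, a large-subunit protein of mitochondria, had 11.34 and 11.36 in Control and 11.06 and 10.63 in treated cells. It fell by 0.51 (SE 0.0899, n = 2 and 2, adjusted p = 0.000503). MRPS23, a small-subunit protein, had 11.10 and 11.10 in Control and 10.68 and 10.65 in treated cells, and fell by 0.44 (SE 0.0868, adjusted p = 0.00157). Both treated arrays lay below both Control arrays in each of these genes, which was a condition for naming them. MRPL57, a small protein of the large subunit that was named after its values were seen, had 8.30 and 8.35 in Control and 8.07 and 8.03 in treated cells (-0.27, SE 0.0435, adjusted p = 0.000188). These 3 genes were called under all 13 settings and omissions of an array. The MRPL11 probe ILMN_4967 fell by 0.49 and was called under each of the 12 settings that kept it.

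MRPS30 had 12.42 and 12.56 in Control and 12.22 and 12.04 in treated cells (-0.36, SE 0.101, adjusted p = 0.0197). MRPL16 had 12.25 and 12.46 in Control and 12.08 and 11.91 in treated cells (-0.36, SE 0.0831, adjusted p = 0.00546). Both treated arrays were below both Control arrays of that hour, as the same condition required. MRPL16 had risen in Control cells between 0 and 24 h, and both comparisons use the same 24 h Control arrays. The same held for MRPL40, with 11.98 and 11.97 at 0 h, 12.12 and 12.25 in Control at 24 h and 11.94 and 11.96 in treated cells (-0.24, adjusted p = 0.000691). MRPL58 fell by 0.32 (adjusted p = 0.0369) and MRPS18C by 0.26 (adjusted p = 0.0169). The other members that fell, each by 0.20 to 0.34, were the MRPL22 probe ILMN_29349, MRPS10, MRPS31, MRPL15, MRPS15 and MRPL36. MRPL12, MRPL44, MRPS12, MRPS18A and MRPS18B were not called, at -0.19 for MRPL12 (SE 0.135, adjusted p = 0.414), -0.04 for MRPL44 (adjusted p = 0.813), -0.06 for the MRPS12 probe ILMN_17557 (adjusted p = 0.77), 0.01 for MRPS18A (adjusted p = 0.988) and 0.15 for MRPS18B (SE 0.148, adjusted p = 0.591). The members that rose were MRPL28, with 9.91 and 9.74 in Control and 10.00 and 10.38 in treated cells (0.36, adjusted p = 0.0358), and the MRPL11 probe ILMN_1149 (0.32, adjusted p = 0.0269). With equal medians, MRPL28 turned to -0.09 and this MRPL11 probe to 0.03, and neither was called.

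Array brightness moved with this comparison too. In IM9 at 24 h it was 9.24 and 9.29 with buffer and 6.71 and 3.97 with ch128.1Av. With brightness as a covariate 9 members were called, all lower, and 6 of the 17 calls were kept. Without treated replicate 2, the dimmest, 5 were called, and without Control replicate 2, 7 were called. With equal medians 5 were called, all lower, the members' median was -0.38 and that of all kept probes -0.14. The part of brightness in the result was otherwise not tested. Each treated array was also set against each Control array, and 54 to 62 of the 85 members lay below 0, where 49.8% to 51.7% of all kept probes did. Quantile normalization holds the share of all kept probes near that level. These comparisons reuse the same arrays, so they cannot separate treatment from brightness.

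Of the 49 partner probes, 5 fell in IM9 at 24 h and 1 rose, with a median of -0.03. The translation factors and the transcription genes had 0 calls by limma, where 2 and 4 had an unadjusted p under 0.05. The 1 that rose was MRM2, a methyltransferase of the large ribosomal RNA, with 10.71 and 10.49 in Control and 11.12 and 11.14 in treated cells (0.53, SE 0.0954, adjusted p = 0.000592). FASTKD2, which binds the large ribosomal RNA, fell by 0.38 (adjusted p = 0.00284), and NSUN4, which methylates the small ribosomal RNA, by 0.44 (adjusted p = 0.00305). Cytosolic ribosomal proteins rose at 12 of 71 probes and fell at 6, with a median of 0.05.

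**Figure D3:**
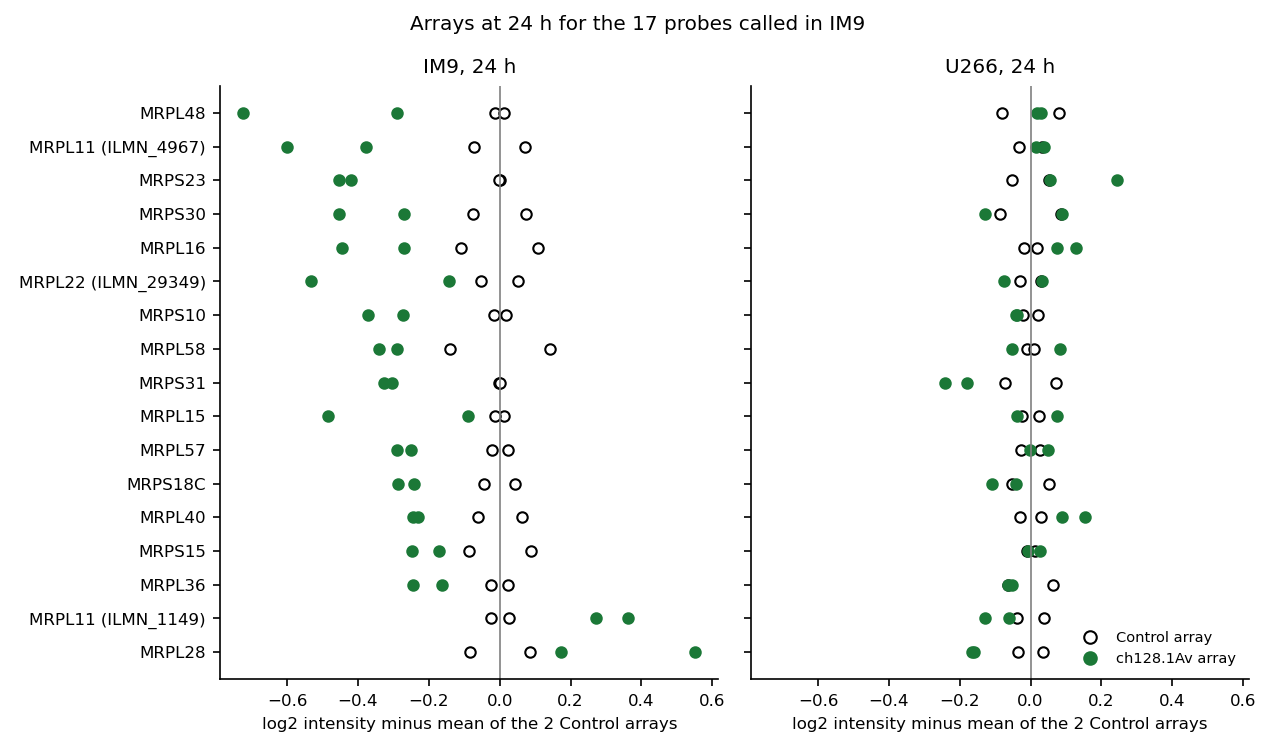
Log2 intensity of each array at 24 h minus the mean of the 2 Control arrays of that line, for the 17 probes called with ch128.1Av in IM9, Control arrays open and treated arrays filled. In IM9 the treated arrays lie below both Control arrays for 15 probes and above them for MRPL28 and 1 MRPL11 probe, whose values with equal medians were -0.09 and 0.03. In U266 the same probes were not called.

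In U266, ch128.1Av gave 9 called members at 1 h, 7 higher and 2 lower, where 9.02% of all kept probes were called (4.62% higher, 4.4% lower). MRPS18B had 9.95 and 9.78 in Control and 10.43, 10.64 and 10.50 in treated cells (0.65, SE 0.135, n = 3 and 2, adjusted p = 0.00657). MRPL2 had 9.34 and 9.44 in Control and 9.90, 10.05 and 9.85 in treated cells (0.54, SE 0.105, adjusted p = 0.00408). The treated arrays of both genes lay above the Control arrays of that hour, which was a condition for naming them. MRPL17, MRPL41, MRPL9, MRPS26 and 1 MRPL11 probe were higher by 0.37, 0.33, 0.31, 0.29 and 0.43, and MRPL24 and the other MRPL11 probe lower by 0.21 and 0.19. All 3 treated arrays at 1 h, and neither Control array, belonged to the 7 U266 arrays whose highest raw signal exceeded 60000, so treatment and this set of arrays cannot be told apart at 1 h. With the set as a block 0 members were called, and with brightness as a covariate or equal medians 0 were called as well. Without Control replicate 1 or 2 or treated replicate 2, 4, 5 and 5 were called. The Control array values of MRPL2 at 9 h, 9.73 and 9.61, and of MRPS18B, 10.39 and 10.09, came from 2 further arrays of that set.

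At 3, 9 and 24 h in U266, 0 members were called by limma, where 5, 3 and 6 had an unadjusted p under 0.05, and 0.00828%, 0.0414% and 0.0166% of all kept probes were called. At 24 h the members ranged from -0.23 to 0.30 with a median of -0.02. With equal medians 1 member was called at 3 h.

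The difference between the lines in the effect of ch128.1Av was called for 6 members at 24 h, all more negative in IM9, where 4.69% of all kept probes were called, 2.31% more positive and 2.38% more negative. At 1, 3 and 9 h 0 members were called by limma (0.0828%, 0% and 0.0166% of all kept probes), where 13, 0 and 2 had an unadjusted p under 0.05. MRPS23 had 11.34 and 11.44 in U266 Control cells at 24 h and 11.63 and 11.45 in treated ones, a change of 0.15 that was not called, against -0.44 in IM9. The difference of these changes was -0.59 (SE 0.123, adjusted p = 0.00668). MRPL48 had 10.97 and 11.13 in Control and 11.08 and 11.07 in treated U266 cells, and its changes differed by -0.53 (SE 0.127, adjusted p = 0.0173). The MRPL11 probe ILMN_4967 differed by -0.52 (SE 0.0953, adjusted p = 0.00282), MRPL16 by -0.46 (SE 0.117, adjusted p = 0.0247) and MRPL40 by -0.36 (SE 0.0612, adjusted p = 0.00134). That MRPL11 probe was dim in U266, averaging 8.22 in Control cells at 3 h. The MRPL4 probe detected on no U266 array averaged 7.75 in Control cells. A fall of the size ILMN_4967 showed in IM9 could thus not have been measured in full in U266. MRPL57 differed by -0.29 (adjusted p = 0.00657). In U266 it lay near background, detected on 16 of 20 arrays, so that a fall of the size seen in IM9 could not have been measured there. With equal medians 0 were called, and with brightness as a covariate 2. Without treated IM9 replicate 1, 15 were called, and without treated U266 replicate 1, 3 were called. MRM2 (0.65, adjusted p = 0.00633) and DAP3, a GTP-binding protein of the small subunit (-0.43, adjusted p = 0.0369), were called among the partner genes.

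Several genes were read by more than 1 probe, which allowed a test of whether the probes of a gene changed alike. There were 12 pairs of kept probes within 8 member genes, read from a fit over all 564 such pairs on the array. MRPL11 lies at the base of the stalk where translation factors bind. Its probe ILMN_1149 had 12.78 and 12.73 in IM9 Control cells at 24 h and 13.02 and 13.12 in treated cells. Its probe ILMN_4967 had 8.73 and 8.88 in Control and 8.43 and 8.21 in treated cells. The first was higher on both treated arrays and the second lower. On the treated IM9 arrays of 1 to 9 h the first ranged from 12.87 to 13.00 and the second from 8.72 to 8.98, so the 24 h arrays stood above the one range and below the other. The changes of 0.32 and -0.49 differed by 0.81 (SE 0.133, adjusted p = 0.000244), where 11% of all pairs were called. The difference was called without each of the 4 arrays in turn (0.65 to 0.96), with equal medians (0.83) and with brightness as a covariate (0.50, adjusted p = 0.00597).

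MRPL11 showed the same disagreement in U266 at 1 h, where ILMN_1149 had 11.34 and 11.36 in Control and 11.65, 11.88 and 11.84 in treated cells, and ILMN_4967 had 8.22 and 8.26 in Control and 8.05, 8.02 and 8.07 in treated cells. The changes of 0.43 and -0.19 differed by 0.63 (SE 0.121, adjusted p = 0.00759), where 9.93% of pairs were called. With the high-signal arrays as a block the difference was 0.28 (adjusted p = 0.672), and with brightness as a covariate 0.29 (adjusted p = 0.152). In U266 at 24 h the probes changed by -0.09 and 0.03 and neither was called. The difference between the lines at 24 h in the disagreement of the probes was 0.93 (SE 0.188, adjusted p = 0.00483), and without treated IM9 replicate 2 it was 0.77 (adjusted p = 0.0765). ILMN_4967 lay near background in U266, so that a fall of the size seen in IM9 could not have been measured in full there. Between the lines both probes were higher in IM9, by 1.40 for ILMN_1149 and by 0.64 for ILMN_4967, the latter limited by background in U266. Their Control arrays ranged from 12.73 to 13.03 in IM9 and from 11.19 to 11.71 in U266 for the first probe, and from 8.64 to 8.88 and from 8.01 to 8.26 for the second, with no overlap between the lines at either. The difference of 0.76 (SE 0.0595) was called along with 11 of the 12 member pairs, where 80.9% of all pairs were called.

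**Figure D4:**
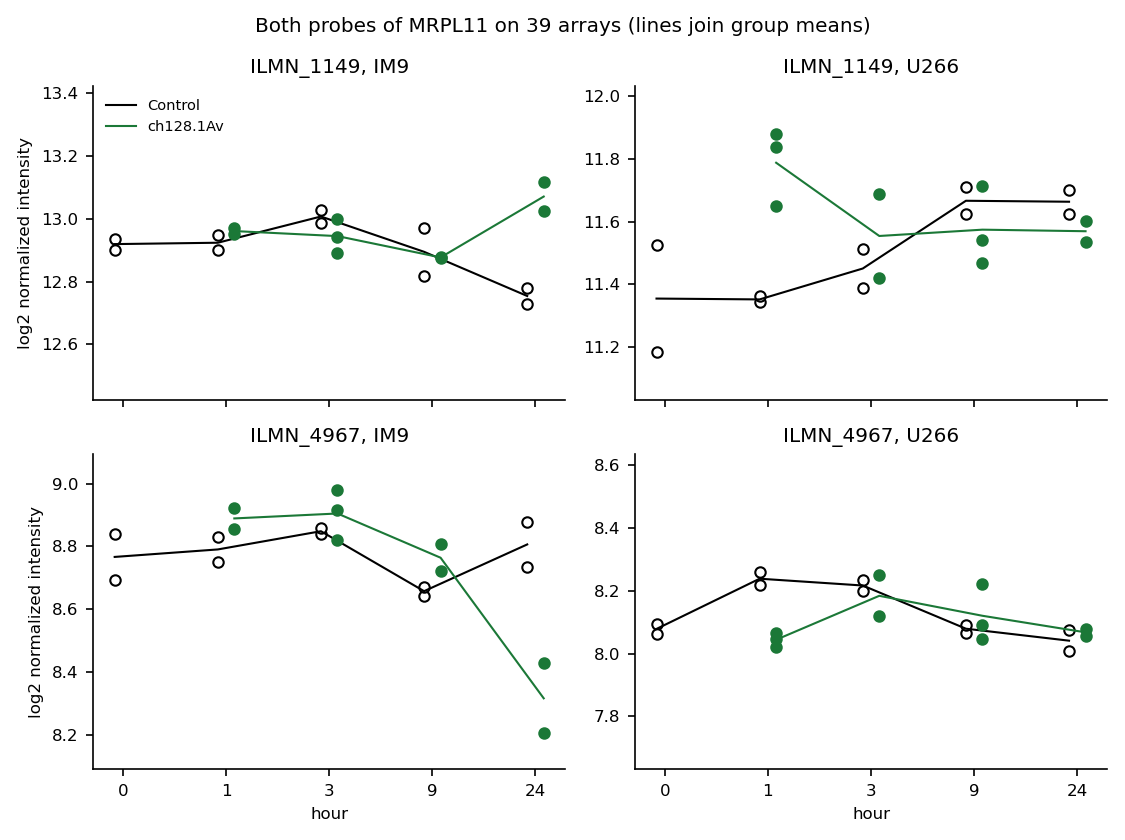
Log2 normalized intensity of both MRPL11 probes on each of the 39 arrays by hour, with ILMN_1149 in the upper and ILMN_4967 in the lower panels, Control arrays open, ch128.1Av arrays filled and lines through the group means. Each axis spans 1 log2 unit. At 24 h in IM9 the upper probe rose by 0.32 (0.03 with equal medians) and the lower fell by 0.49.

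MRPS21, the homologue of bacterial S21, had the widest disagreement between the lines. Its probe ILMN_18204 ranged from 10.00 to 10.47 on the IM9 Control arrays and from 11.54 to 11.91 on those of U266, and was 2.66-fold lower in IM9 (-1.41, SE 0.046). Its probe ILMN_10651 ranged from 13.21 to 13.64 in IM9 and from 13.21 to 13.71 in U266, and the lines overlapped throughout (-0.06, adjusted p = 0.307). The changes differed by 1.35 (SE 0.0861). The MRPS12 probes detected in both lines were higher in IM9 by 0.93 and 0.45, the remaining one having only the bound given above. The probe at 0.45, ILMN_28352, was dim in U266, averaging 7.97 in Control cells at 3 h, so its difference is limited by background. The probes of MRPL22 were higher by 0.54 and 0.76. The probes of MRPL43 were lower in IM9, at -0.51, -0.33 and -0.06. The first, ILMN_1205, and the last, ILMN_6783, lay near background in IM9, with Control means of 7.88 and 7.91. The sizes of their differences are thus limited by background. The last call, ILMN_6783, was lost with the high-signal block (adjusted p = 0.0682) and without IM9 Control replicate 1 at 3 h (adjusted p = 0.0539). The probes of MRPL35 were at -0.33 and -0.28, both not called with equal medians (-0.16 and -0.19), and this was the only pair whose difference between the lines was not called. For MRPL39 and MRPL4, 1 probe was higher in IM9 by 0.84 and 0.68, while the second was rarely detected in IM9 and on no U266 array, so the probes cannot be compared.

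The fall of MRPL4 in IM9 at 24 h on ILMN_13307 likewise had no measure on ILMN_13541, which was at background. Over the hours, in U266 at 1 h the MRPL43 probe ILMN_1205 fell while ILMN_4156 was at 0.13 and ILMN_6783 at -0.01. These were differences of -0.54 and -0.39 (adjusted p = 0.00608 and 0.00151), where 13.5% of pairs were called. ILMN_6783 averaged 7.97 in U266 Control cells, near background, so a fall like that of ILMN_1205 could not have been measured in full on it. The difference of -0.39 is thus limited by background. With ch128.1Av in IM9 at 24 h, MRPL22 fell by 0.34 on ILMN_29349 and was at -0.03 on ILMN_23600, a difference of 0.31 (adjusted p = 0.0479) that was called in 1 of 4 omissions of an array. Without treated replicate 2 it was 0.06. In all, 18 differences between member probes were called over the 21 contrasts. Of these, 5 involved a probe detected on no U266 array, where a disagreement could not be measured. Others involved probes that lay near background in a line, such as ILMN_6783, where a disagreement could be measured only in part.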

How the data were processed

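RNA of IM9 and U266 cells was measured on 39 Illumina BeadChip arrays, read with BeadStudio, per the submitters' processing notes. The deposited intensity values are mean bead intensities per probe, not normalized, per the file headers. The deposited detection scores are a fraction per probe and array, per the file headers, and the detection p was taken as 1 minus the score. A deposited table of log2 values, equally distributed on every array as deposited, served as an alternative. A further 78 columns of array values were not used here. Gene symbols came from the platform annotation, updated through RefSeq.

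Intensities were background-corrected, quantile-normalized and log2-transformed with neqc (offset 16, limma 3.58.1, R 4.3.3). The filter kept a probe once 2 arrays or more gave it a detection p below 0.01. One limma fit with 18 group means (21 residual degrees of freedom) gave 21 contrasts, each with Benjamini-Hochberg adjustment over all 12080 kept probes at 0.05. Line levels were compared as the mean of the 5 Control groups of each line. For probe pairs, the difference of both probes on each array was fitted over 564 pairs of 520 genes. The fits were tested on simulated data. The number of arrays limits the precision.

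Members and gene lists were chosen with earlier results of these data known. Named were genes with several probes, the largest called changes without overlap between arrays (8 per direction between lines, 6 with treatment, 4 over hours, 5 for line differences in effect), and MRPL12, MRPS12, MRPS18A, MRPS18B, MRPS18C, MRPL44 and MRPL58. MRPL57, MRPS10, MRPS31, MRPL15, MRPL40, MRPS15 and MRPL36 in treated IM9 cells, MRPS26 in treated U266 cells, MRPL57 among the line differences in effect, and probes that were not called between the lines were named after their values were seen. The fits treated arrays as unpaired. By replicate number, deviations from group means had correlations of -0.70 to 0.30, which so few arrays per group leave unable to settle whether numbers pair arrays. No arrays held identical values.

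Alternatives were equal medians, the deposited log2 table, no background correction, no filter on dim probes, 1 probe per gene, each line by itself, a replicate block, the 7 U266 arrays with a signal above 60000 as a block, brightness as a covariate and omission of each array. The line comparison without the 9 h Control arrays, and the pair fits with the high-signal block or with brightness, were added after seeing the data.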

Additional observations from a re-analysis of the deposited data

Results flagged for a closer look

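The effect of ch128.1Av at 24 h differed between IM9 and U266, by the test of the difference itself, for 6 of 85 probes, all lower in treated IM9 cells. Of all kept probes, 4.69% were called by this test, 2.31% more positive and 2.38% more negative in IM9. The differences of the changes were -0.59 for MRPS23, -0.53 for MRPL48, -0.52 for the MRPL11 probe ILMN_4967, -0.46 for MRPL16, -0.36 for MRPL40 and -0.29 for MRPL57. The change in U266 was 0.15 for MRPS23, 0.02 for MRPL48 and 0.12 for MRPL40, and none of the 6 was called there. MRPL57 lay near background in U266, so that a fall could not have been measured. The MRPL11 probe also lay near background there, so that a fall of the size seen in IM9 could not have been measured in full. With equal medians none of these differences was called, at -0.59 for MRPL40 (adjusted p = 0.523) and -0.80 for the MRPL11 probe (adjusted p = 0.0761). With brightness as a covariate those of MRPS23, MRPL48 and MRPL16 were not called.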

How the results depend on the processing

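Members were called between the lines at 79 probes, at 77 without the 9 h Control arrays and at 75 to 79 when 1 array was omitted. Against 0 h, IM9 had 1 called member at 1 h (omissions 0 to 3), 1 at 3 h (0 to 5), 0 at 9 h (0 to 1) and 13 at 24 h (8 to 11), and U266 had 5 at 1 h (1 to 5), 5 at 3 h (1 to 6), 0 at 9 h (0 to 1) and 14 at 24 h (0 to 16). With treatment, IM9 at 24 h had 17 (5 to 22), U266 at 1 h had 9 (4 to 9) and U266 at 24 h had 0 (0 to 1). The line difference in effect at 24 h had 6 (3 to 15), and probe pairs had 18 calls (15 to 24). With equal medians the counts were 0 for IM9 at 1, 3 and 24 h against 0 h, 1 for U266 at 1 h and 0 at 3 and 24 h against 0 h, 5 for treated IM9 at 24 h, 0 for treated U266 at 1 h and 1 at 3 h, and 0 for the line difference in effect at 24 h. MRPL28 in IM9 then changed by 0.000878 over 24 h and by -0.0891 with treatment, and the cause was not tested. With brightness as a covariate there were 2 for IM9 at 3 h and 1 at 9 h against 0 h, 1 for U266 at 9 h and 2 at 24 h, 9 for treated IM9 at 24 h, 0 for treated U266 at 1 h and 2 for the line difference in effect. With each line by itself U266 had 1, 1, 1 and 5 against 0 h at 1, 3, 9 and 24 h, and 3 with treatment at 1 h. The authors' log2 table gave 0 for IM9 at 1 and 3 h and 3 and 2 for U266 at 1 and 3 h, no background correction gave 0 for IM9 at 3 h and 3 and 2 for U266, no filter on dim probes gave 3 for U266 at 1 h, and 1 probe per gene gave 0 for IM9 at 3 h. The high-signal block gave 0 for treated U266 at 1 h. The replicate block gave 72 between the lines, 15 for treated IM9 at 24 h, 17 probe pairs and 3 each for U266 at 1 and 3 h against 0 h, and changed no other count by more than 1.5 times. Whether replicate numbers pair arrays is not known. Signals near background limit what can be said of the dim probes of MRPL4, MRPL39, MRPL43 and MRPS12, and of MRPL57 and the MRPL11 probe ILMN_4967 in U266.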
